A study of Mus musculus with 6 samples.

Results

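The FOS, JUN and EGR immediate early genes were followed in cultured fibro-adipogenic progenitors of mouse muscle, the mesenchymal cells that can turn into fibroblasts or adipocytes. They were taken as the rows of the deposited count table whose symbol is Fos, Fosb, Fosl1, Fosl2, Jun, Junb, Jund, Egr1, Egr2 or Egr3, which are 10 of 41388 genes, and all 10 passed the filter on low counts. One group of 3 libraries came from primary cells given vehicle and the other group of 3 from primary cells given 500 nM prostaglandin E2 (PGE2), a lipid mediator whose receptors act on cyclic AMP and calcium. Both groups were wt, male cells, and both were dosed once per day on 2 days in a medium with 10% FBS and 2.5 ng/mL hFGF. Serum and fibroblast growth factor therefore stood in the medium of treated and control cells alike. Not given in the labels are the mouse strain and age, the hours between the last dose and harvest, and whether each library stands for its own mouse or culture, so the p-values measure the spread between these libraries, which may be technical.

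The FOS and JUN proteins pair with each other through leucine zippers to form AP-1, a transcription factor that binds TGANTCA and related sites. The EGR proteins are zinc finger factors that bind G-rich sites. Genes of these families are known for a rapid and short-lived rise after serum, growth factors or stress, through MAP kinases, the serum response factor and, for several members, the cyclic AMP responsive factor CREB. JunD and Fra-2 are known as the steadier parts of AP-1 between such bursts.

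After 2 days of PGE2, Junb averaged 202 ± 29.7 CPM against 135 ± 21.3 CPM with vehicle (SD, n = 3 each), and Fos 9.28 ± 1.56 against 6.48 ± 1.73 CPM. CPM are counts divided by library size, with libraries scaled by the trimmed mean of M values. The other 8 members had log2 fold changes between -0.39 and 0.16. In the edgeR quasi-likelihood fit without a block, 0 of the 10 members passed an adjusted p of 0.05 and 1 had an unadjusted p under it, against 0.342% and 20.1% of 15186 tested genes. The paired fit adds the replicate number as a block. The labels do not state such a pairing, which was taken from correlations between these same libraries. The paired p-values take no account of that choice. In the paired fit Junb and Fos rose and no member fell. Thus 2 of 10 changed where 14.4% of all tested genes did and 6.91% rose. DESeq2 without a block called 1 member, Junb, where it called 6.14% of genes.

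The 250 bases before the start sites of Junb, Fos and Jun are given because Junb and Fos both rose in the paired fit while Jun, the founding member of its family, did not pass in any fit. They are from RefSeq on GRCm38.p6, the assembly also called mm10, read 5′ to 3′ along the gene, and 7 of the 10 members had such a window. Capitals mark TGACG, the core of the cyclic AMP response element, on the gene's strand or the opposite one.
Junb, chr8:84978749-84978998, minus strand: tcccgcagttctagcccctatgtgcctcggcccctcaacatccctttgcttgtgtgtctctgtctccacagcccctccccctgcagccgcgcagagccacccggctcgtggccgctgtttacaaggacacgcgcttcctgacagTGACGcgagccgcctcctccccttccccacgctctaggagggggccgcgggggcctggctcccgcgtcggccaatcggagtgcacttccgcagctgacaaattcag
Fos, chr12:85473640-85473889, plus strand: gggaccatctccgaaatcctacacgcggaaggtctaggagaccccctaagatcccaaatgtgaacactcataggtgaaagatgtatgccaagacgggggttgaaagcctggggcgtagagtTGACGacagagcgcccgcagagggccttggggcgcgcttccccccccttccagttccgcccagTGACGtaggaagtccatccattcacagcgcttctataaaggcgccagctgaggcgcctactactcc
Jun, chr4:95052223-95052472, minus strand: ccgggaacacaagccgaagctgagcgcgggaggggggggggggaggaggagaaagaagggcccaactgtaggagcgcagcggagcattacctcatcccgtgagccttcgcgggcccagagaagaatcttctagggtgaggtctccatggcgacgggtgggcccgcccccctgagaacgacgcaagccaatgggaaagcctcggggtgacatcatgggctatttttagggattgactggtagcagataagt

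TGACG stood 106 to 102 bases before the Junb start, and at 129 to 125 and 66 to 62 bases before the Fos start. The Jun window held no exact match to TGACG, nor to any of the other motifs searched. It did hold TGACATCA, which is close to the palindrome TGACGTCA given below and was not among the patterns searched. Both strands were searched, and 17.8% of the 32851 mouse promoter windows of this length held TGACG at least once. Of the 7 members with a window, 4 held it, namely Junb, Fos, Fosb and Egr2. Junb and Fos averaged higher with PGE2, as given above. Fosb averaged 3.42 CPM with vehicle and 3.12 CPM with PGE2, and Egr2 31.9 and 27.0 CPM. Whether a match goes with a member's change was not tested. Counted by window, as the 17.8% is, 6 of the 11 member windows held TGACG, including overlapping ones at Egr2. The full palindrome TGACGTCA, which contains TGACG, was in 0 of the 7 members and in 1.55% of windows. TGANTCA was also in 0 of the 7 and in 6.75% of windows. Within these windows the CArG box, the site of the serum response factor, was found at Egr2 alone of the 7. It was in 4 of the 11 member windows and in 1.47% of all windows. Bases outside the windows were not searched, so a member without a match, such as Fos, may still have a CArG box elsewhere. Egr1, Egr3 and Fosl1 had no window and were not searched for any motif. The EGR site GCGNGGGCG was at Fosl2 and Fosb, in 2 of the 11 member windows and in 4.70% of all windows. These matches describe letters in a window and were not measured as binding.

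Junb encodes an AP-1 subunit that often limits growth where c-Jun favours it. It occupies 84974484 to 84978718 of chromosome 8 in mm10, where its longest annotated transcript is a single exon. With vehicle the level was 110.1, 147 and 147 CPM in libraries 1 to 3, and with PGE2 it was 172, 232 and 201 CPM. Every PGE2 library lay above every vehicle library, which was so for 13.7% of all tested genes in that direction. The log2 fold change was 0.58 ± 0.149 (SE), with a 95% interval of 0.24 to 0.93, and the edgeR adjusted p was 0.122. Blocking on the replicate number gave 0.59 ± 0.0725 with an adjusted p of 0.000788. The differences within replicate numbers 1 to 3 were 0.64, 0.65 and 0.46. DESeq2 gave 0.58 with an adjusted p of 0.0103.

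Reads behind Junb were plentiful, from 3112 counts in the shallowest library to 11947 in the deepest. The gene shares 173 bases, 7.52% of its annotated exonic length, with the peroxiredoxin gene Prdx2 on the other strand, and the strand setting of the counting is not given in the sources used here. Prdx2 was at 311, 329.9 and 352 CPM with vehicle and between 386 and 393 CPM with PGE2, a log2 fold change of 0.24 with an edgeR adjusted p of 0.170. The part of Prdx2 reads in the Junb difference was not tested.

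Fos encodes c-Fos, the classic transient partner of the JUN proteins, from chromosome 12 at 85473890 to 85477273. Its level was 4.51, 7.19 and 7.74 CPM across vehicle libraries and 7.49, 9.96 and 10.4 CPM across PGE2 libraries, in the order of their numbers. The groups overlapped, because PGE2 library 1 lay below vehicle library 3. Within each replicate number the PGE2 library was the higher one, by 0.73, 0.47 and 0.42 on the log2 scale, as was so, in that direction, for 26.5% of all tested genes. The unblocked log2 fold change was 0.52 ± 0.227, with a 95% interval of -0.0091 to 1.05 and an edgeR adjusted p of 0.254. The paired fit gave 0.54 ± 0.117 and an adjusted p of 0.0149. With number 1 left out of the paired fit, 0.45 remained and the adjusted p was 0.0688. These values rest on 152 to 514 counts per library.

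**Figure D1:**
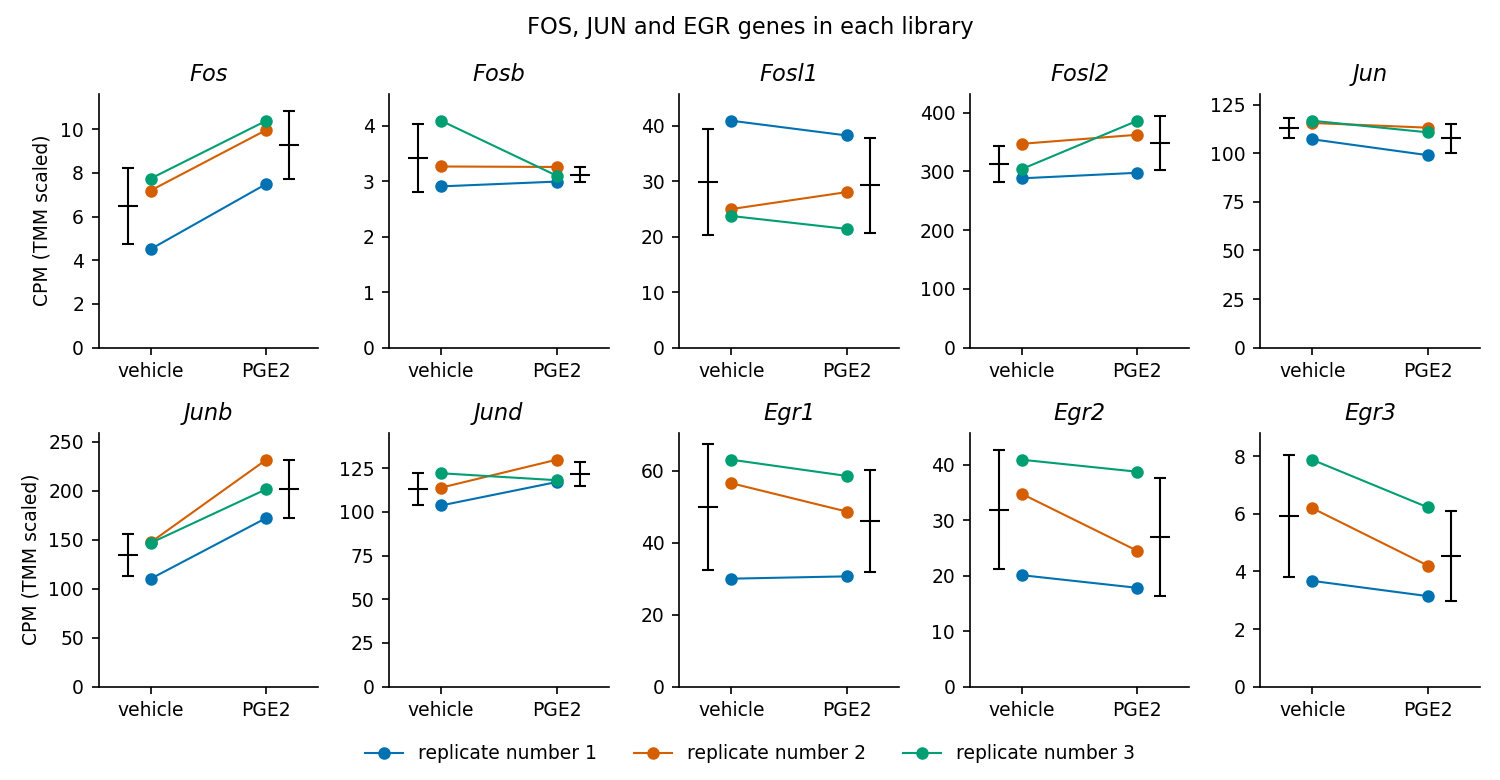
Each panel plots one gene, with CPM from 0 on the vertical axis and the vehicle and PGE2 groups on the horizontal axis; lines join libraries of the same replicate number, and black bars give the mean ± SD of 3 libraries. Junb separates the groups, from 110.1 to 147 CPM with vehicle and from 172 to 232 CPM with PGE2, whereas both number 1 libraries are lowest for Egr1, Egr2 and Egr3 and highest for Fosl1.

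The other FOS genes had smaller differences. Fosl2, which encodes Fra-2, was the most abundant FOS gene by count, at 288, 347 and 304 CPM with vehicle and 298, 362 and 386 CPM with PGE2. The groups overlapped, since PGE2 library 1 lay below vehicle libraries 2 and 3. Within each replicate number the PGE2 library was the higher one, by 0.046, 0.063 and 0.35 on the log2 scale. That was so, in that direction, for 26.5% of all tested genes. The Fosl2 log2 fold change was 0.16 ± 0.122 unblocked, with a 95% interval of -0.13 to 0.44 and an edgeR adjusted p of 0.508. It was 0.15 in the paired fit with an adjusted p of 0.247. Fosl2 has a longest annotated transcript of 6537 bases. Across 15098 tested genes, which are not independent replicates, the unblocked log2 fold change had a rank correlation of -0.41 with the length of the longest transcript. With a correction for length in the paired fit Fosl2 was at 0.30 ± 0.0577 and rose (edgeR adjusted p = 0.00264).

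Fosl1, which encodes Fra-1, the FOS protein most tied to migrating and invasive cells, was at 40.9, 24.98 and 23.7 CPM with vehicle and 38.2, 28.04 and 21.4 CPM with PGE2. Both number 1 libraries were the highest, and the groups overlapped. Its log2 fold change was -0.033 with a 95% interval of -0.72 to 0.65, and -0.030 ± 0.0874 in the paired fit. More than a 1.5-fold change in either direction lay inside the unblocked interval. Fosl1 shares 57.2% of its exonic bases with Ccdc85b on the opposite strand, which had log2 fold changes of 0.28 in both fits and rose in the paired one (edgeR adjusted p = 0.0363). Fosb was near the bottom of the range, at 2.91, 3.26 and 4.09 CPM with vehicle and 2.99, 3.26 and 3.10 CPM with PGE2, from 69 to 177 counts. It had a log2 fold change of -0.14, with a 95% interval of -0.55 to 0.28 and an edgeR adjusted p of 0.702.

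Jun, the gene of c-Jun, varied little, with 107, 116 and 117 CPM in vehicle libraries and 99.0, 113 and 111 CPM in PGE2 libraries. Its log2 fold change was -0.072 ± 0.0782, the 95% interval ran from -0.25 to 0.11, and the edgeR adjusted p was 0.641. Its adjusted p was 0.491 with the block. Jund, whose protein is the steady JUN subunit of resting cells, was at 104, 114 and 122 CPM with vehicle and 117, 129.8 and 118 CPM with PGE2. Its log2 fold change was 0.10 ± 0.0848, with a 95% interval of -0.094 to 0.30, and it turned to -0.018 with the length correction. Neither Jun nor Jund passed the edgeR test over all 6 libraries with or without the block. Of Jund's exonic bases 52.6% lie opposite Gm11175, which had at most 1.79 CPM, and Jun shares 7.28% with Junos, which had at most 3.09 CPM.

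Ratios within a library do not depend on scaling. Junb counts per Jun count were 1.03, 1.27 and 1.26 in vehicle libraries 1 to 3, and 1.74, 2.05 and 1.82 in PGE2 libraries 1 to 3. Fos counts per Fosb count were 1.55, 2.20 and 1.89 with vehicle, and 2.504, 3.06 and 3.35 with PGE2. Both ratios were higher in every PGE2 library than in any vehicle library, but these pairs of genes were chosen after their values were seen and the ratios carry no test.

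The EGR genes were lower in both number 1 libraries than in the other 4, and the groups overlapped. Egr1, the best-known serum-induced zinc finger factor, was at 29.99, 56.5 and 63.0 CPM with vehicle and at 30.6, 48.6 and 58.5 CPM with PGE2, in the order of the numbers. Within each group library 1 was far below the others. Its log2 fold change was -0.12 ± 0.335, with a 95% interval of -0.92 to 0.69 and an edgeR adjusted p of 0.875. Blocking on the number cut the standard error to 0.0791, and the paired value was -0.099 with an adjusted p of 0.431.

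Egr2, known for its part in Schwann cell myelination, was at 20.1, 34.8 and 40.9 CPM with vehicle and 17.8, 24.5 and 38.8 CPM with PGE2. The PGE2 library was the lower one in all 3 numbers, with log2 differences of -0.17, -0.51 and -0.078, as was so, in that direction, for 25.5% of all tested genes. Its paired log2 fold change was -0.25 ± 0.0953, short of the threshold at an edgeR adjusted p of 0.105, and with the length correction it was -0.28 ± 0.0841 and passed (edgeR adjusted p = 0.0391). Egr3 was the least abundant of the 3, at 3.67, 6.20 and 7.88 CPM with vehicle and 3.14, 4.21 and 6.23 CPM with PGE2. It too was lower in each number, and its log2 fold change of -0.39 ± 0.342 had an edgeR adjusted p of 0.561, or 0.0854 in the paired fit.

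**Figure D2:**
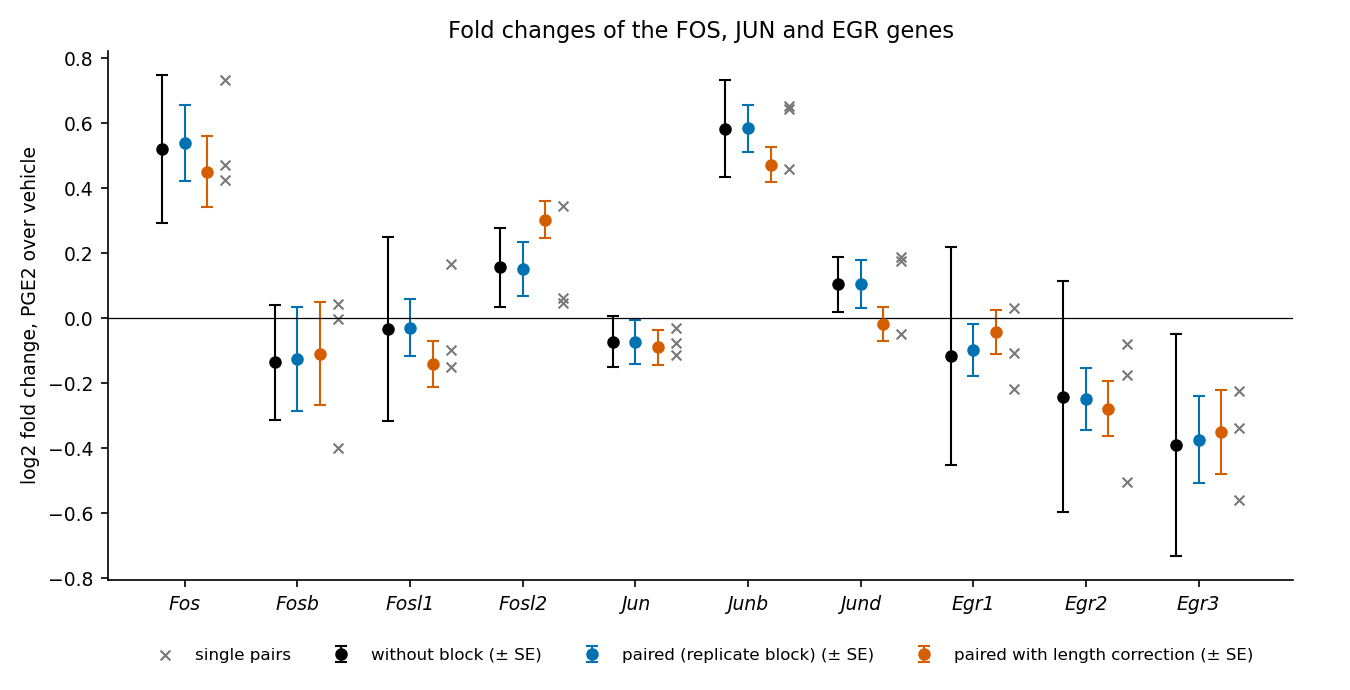
The vertical axis is the log2 fold change of PGE2 over vehicle and the horizontal axis lists the 10 genes; circles with bars are the estimate ± SE of the fit without a block, of the paired fit and of the paired fit with length correction, and grey crosses are the 3 single pairs. Fos, Junb and Fosl2 sit above 0 in all 3 fits and all 3 pairs, and the bars of Egr1, Egr2 and Egr3 shorten once the replicate number is in the fit. All 3 pairs lay above 0 for 26.5% of all tested genes.

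With both the block and the length correction, 4 of the 10 members changed where 16.8% of all tested genes did. Junb (0.47), Fos (0.45) and Fosl2 rose and Egr2 fell. The length correction without the block called 0 members, and 0.0988% of genes. The median log2 fold change of the 10 members was -0.053 and that of all tested genes -0.0010, with 4 members above 0 and 6 below.

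The members' own deviations showed what moved with the replicate number. On the log2 scale the number 1 libraries lay at -0.61 and -0.58 from the Egr1 mean and at 0.51 and 0.41 from the Fosl1 mean, vehicle first. Egr2 and Egr3 were likewise lowest in both number 1 libraries. Markers of muscle cells moved along with this split, since 10 myogenic genes summed to 229, 75.1 and 50.4 CPM with vehicle, in the order of the numbers, and to 156, 23.4 and 23.8 CPM with PGE2. Of the 8 myogenic genes tested 0 passed unblocked and 6 fell in the paired fit, where 1140 of all 15186 tested genes fell. Myog, the gene of myogenin, was at 20.9 and 11.5 CPM in the number 1 libraries and at most 3.74 CPM in the others. Pax7 and Myf5, which mark muscle stem cells, were at or under 0.116 CPM everywhere. The part of the myogenic cells in the EGR and Fosl1 levels was not tested, and in such bulk samples fewer cells of a type and less RNA per cell cannot be told apart.

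**Figure D3:**
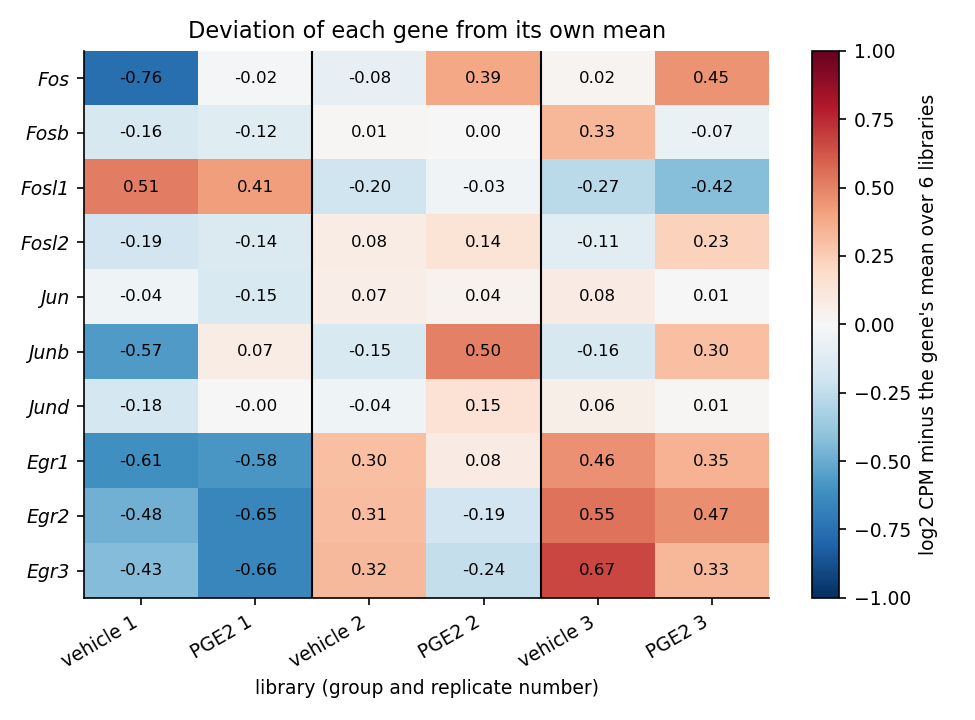
Rows are the 10 genes and columns the 6 libraries, ordered by replicate number and with vehicle before PGE2; colour and printed value give log2 CPM minus the gene's mean over the 6 libraries. The 3 EGR rows are negative in both number 1 libraries and the Fosl1 row is positive there. Fos, Junb and Fosl2 are higher in the PGE2 library of every number, as were 26.5% of all tested genes.

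Levels per kilobase of the longest annotated transcript allow the genes to be ranked. With vehicle, Junb stood at 74.4 ± 11.8 and Jund at 67.8 ± 5.53 CPM per kb, and their libraries overlapped. Fosl2 followed at 47.9 ± 4.65 and Jun at 35.5 ± 1.63 CPM per kb, with no overlap between neighbours on this length. Fosl1 at 16.0 ± 5.13, Egr1 at 11.1 ± 3.90 and Egr2 at 10.8 ± 3.61 CPM per kb overlapped in turn. Fos at 3.07 ± 0.820 CPM per kb lay below these and above Egr3 at 1.501 ± 0.537, and Egr3 overlapped Fosb at 0.904 ± 0.160. Of the exonic bases of Fosl1 and Jund, 57.2% and 52.6% are shared with genes on the opposite strand, and the strand setting of the counting is not given. Its bearing on these levels, and on shares that use them, was not tested. The order depends on the length used. Per kb of the mean transcript length, Junb at 117 ± 18.5 was clear of the rest, Fosl2 at 80.2 ± 7.79 stood above Jund at 67.8 ± 5.53, Fosl1 at 33.0 ± 10.6 overlapped Jun at 35.5, and Egr2 at 20.4 ± 6.84 stood above Egr1 at 13.3 ± 4.65, with overlap. Fos itself made up a small part of the FOS transcripts per kb, 4.55 ± 1.34% with vehicle and 5.91 ± 0.752% with PGE2, beside 70.6 ± 5.83% and 71.7 ± 6.46% for Fosl2.

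The makeup of the JUN family was described without a test. Junb held 38.9, 43.8 and 42.5% of JUN transcripts per kb in vehicle libraries 1 to 3 and 48.4, 53.0 and 51.3% in PGE2 libraries 1 to 3. Jun held 21.5, 19.5 and 19.2% and then 15.8, 14.7 and 16.0%. Jund held 39.7, 36.7 and 38.4% and then 35.7, 32.3 and 32.6%. None of these shares overlapped between groups. They add up to 100% in each library, so they are not independent, and they follow from the JUN levels already given. The JUN total was 178 ± 18.5 CPM per kb with vehicle and 218 ± 22.5 with PGE2, and the FOS total 67.9 ± 3.51 and 74.3 ± 3.35. The EGR total spread from 14.4 to 29.9 CPM per kb with vehicle and from 13.6 to 27.7 with PGE2.

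**Figure D4:**
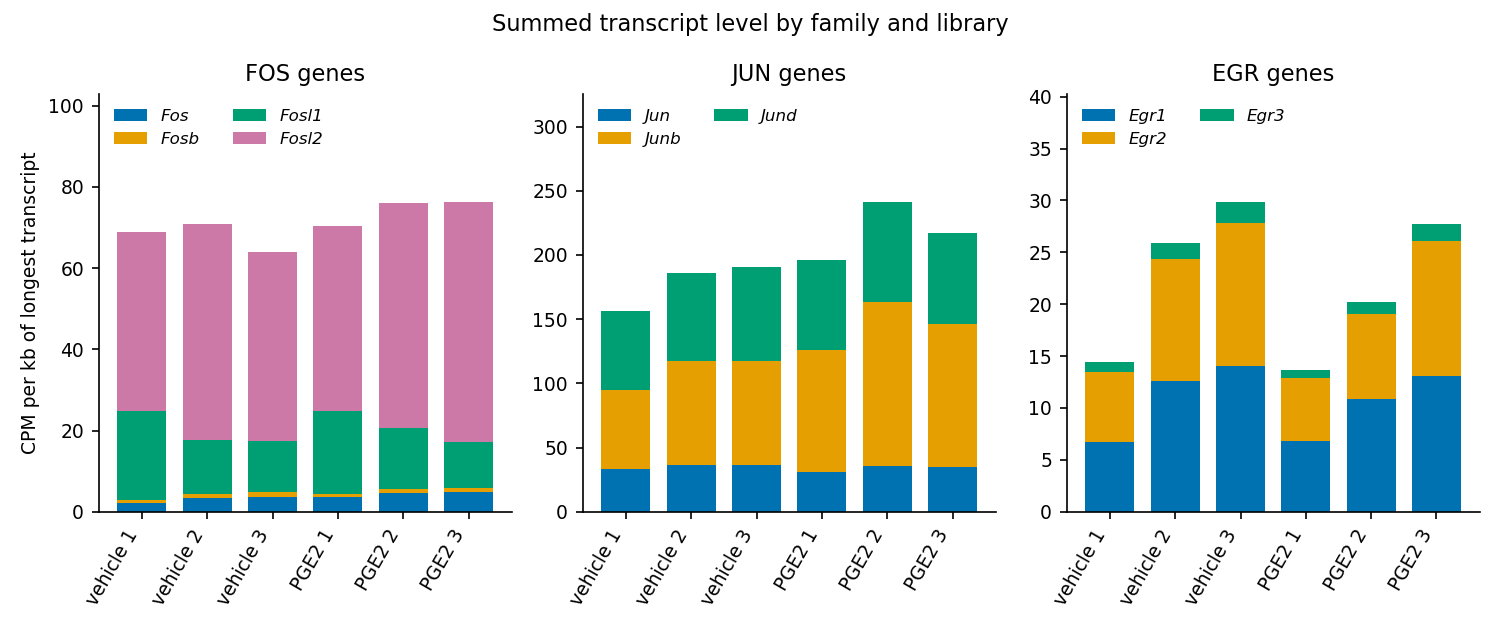
Stacked bars start at 0 and give CPM per kb of the longest transcript for each of the 6 libraries, with one panel each for the FOS, JUN and EGR genes. Fosl2 makes up most of each FOS bar, the Junb segment is taller in the 3 PGE2 libraries, and the EGR bars of both number 1 libraries are the shortest at 14.4 and 13.6 CPM per kb.

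Partners and regulators of these factors mostly stayed short of the test. Of 15 AP-1 and EGR partners, 11 were tested and 0 passed unblocked, with a median log2 fold change of 0.083 beside -0.0010 for all genes. With the block, where 14.4% of all tested genes changed, 1 rose and 0 fell. The one that rose was Maff, a small MAF protein that pairs with other leucine zipper factors, at 32.1, 22.8 and 24.4 CPM with vehicle and 44.1, 36.3 and 33.9 CPM with PGE2 (paired log2 fold change 0.53, edgeR adjusted p = 0.00257). Atf2 and Atf7, which can pair with c-Jun, were each at -0.28 and did not pass either fit. Nab2, a corepressor of the EGR proteins, was at 0.18 (edgeR adjusted p = 0.239). Batf, Batf2, Batf3 and Egr4 were at most 0.302 CPM and were not tested.

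Of 25 upstream factors of the MAP kinase, serum response and CREB routes, all tested, 1 rose and 0 fell unblocked, with a median of 0.011. That gene was Crem, a cyclic AMP responsive member of the CREB family, at 6.42, 7.19 and 7.60 CPM with vehicle and 11.8, 13.7 and 12.5 CPM with PGE2 (log2 fold change 0.84, edgeR adjusted p = 0.0416). Its fold change hardly moved where the call was lost, at 0.81 ± 0.107 with the length correction alone (edgeR adjusted p = 0.0554) and 0.85 in limma-voom (adjusted p = 0.0539). Leaving out 1 library gave 0.77 to 0.90, and it passed only without PGE2 library 1. Under the block 3 rose and 1 fell, where 14.4% of all tested genes changed. The serum response factor gene Srf rose by 0.26 and the MAP kinase kinase Map2k1 by 0.32 on the log2 scale (paired edgeR adjusted p = 0.0412 and 0.0154). The Srf call was lost without number 1 or 2 (adjusted p = 0.0708 and 0.349) and the Map2k1 call without number 2 (adjusted p = 0.162). Mrtfb, a coactivator of the serum response factor, was the one that fell, at -0.56 (paired edgeR adjusted p = 0.0310). It was at -0.36 with the length correction added, where it still passed, and at -0.47 without number 1, where it did not (adjusted p = 0.0594).

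Other immediate early genes included larger fold changes than those of the members. Of 34 in the list 33 were tested, and 3 rose and 0 fell unblocked. They were the orphan receptors Nr4a1 and Nr4a3 (1.91 and 1.89) and Ier3, a survival factor, at 18.1, 16.9 and 21.4 CPM with vehicle and 34.8, 34.997 and 33.98 CPM with PGE2 (log2 fold change 0.88, edgeR adjusted p = 0.0355). With the length correction alone Nr4a1 was at 1.85 and just missed (edgeR adjusted p = 0.0554), limma-voom called Ier3 alone of the 3, and none of the 3 passed without vehicle library 2 or 3 or PGE2 library 2 or 3. Whether they differ from the members in response was not tested. The list's median was 0.13, beside -0.0010 for all tested genes, of which 0.342% were called unblocked. This list too was chosen with earlier results of these data known. Where the paired fit had 1049 of all 15186 tested genes higher and 1140 lower, it had 14 of this list higher and 3 lower. The lower ones, named after their values were seen, were the TGF-beta induced repressor Klf10 (-0.42), the mRNA decay factor Zfp36l2 (-0.24) and the kinase Plk2 (-0.24). Sgk1, the serum and glucocorticoid induced kinase, was at 118, 116 and 118 CPM with vehicle and 146, 153 and 156 CPM with PGE2 and rose in that fit (0.37, paired edgeR adjusted p = 0.00671).

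Genes commonly named as AP-1 targets, a list of 20 with 19 tested, had 3 higher and 0 lower unblocked, where 0.342% of all tested genes were called. Their median was 0.54, beside -0.0010 for all tested genes. The list was chosen with earlier results of these data known, so its median is no independent measure, and AP-1 activity was not tested. Among the 3 higher genes were the cytokine Il6 (3.18) and the urokinase Plau (0.71). The paired fit had 11 higher and 3 lower, where 1049 of all 15186 tested genes rose and 1140 fell. The cytokine Lif was at 6.58, 6.43 and 6.28 CPM with vehicle and 10.2, 9.50 and 10.8 CPM with PGE2 and rose in that fit (0.66, paired edgeR adjusted p = 0.00426). The 3 that fell were the gelatinase Mmp9, the cyclin Ccnd1 and the chromatin protein Hmga1, with paired log2 fold changes of -1.09, -0.92 and -0.84. These 3 were named after their values were seen. Ccnd1 and Hmga1 were highest in vehicle library 1, at 469 and 366 CPM. With the length correction and no block 0 of the 19 passed, although the folds stayed about as large, with Il6 at 3.11 (edgeR adjusted p = 0.0553), Plau at 0.63 (adjusted p = 0.0780) and a list median of 0.49. In limma-voom Il6 was at 3.07 and Plau at 0.71, with adjusted p of 0.0800 and 0.0539. Without vehicle library 2 or 3 or PGE2 library 2 or 3, neither passed unblocked, and Il6 did not pass the paired fit without number 3 (2.98, adjusted p = 0.130).

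**Figure D5:**
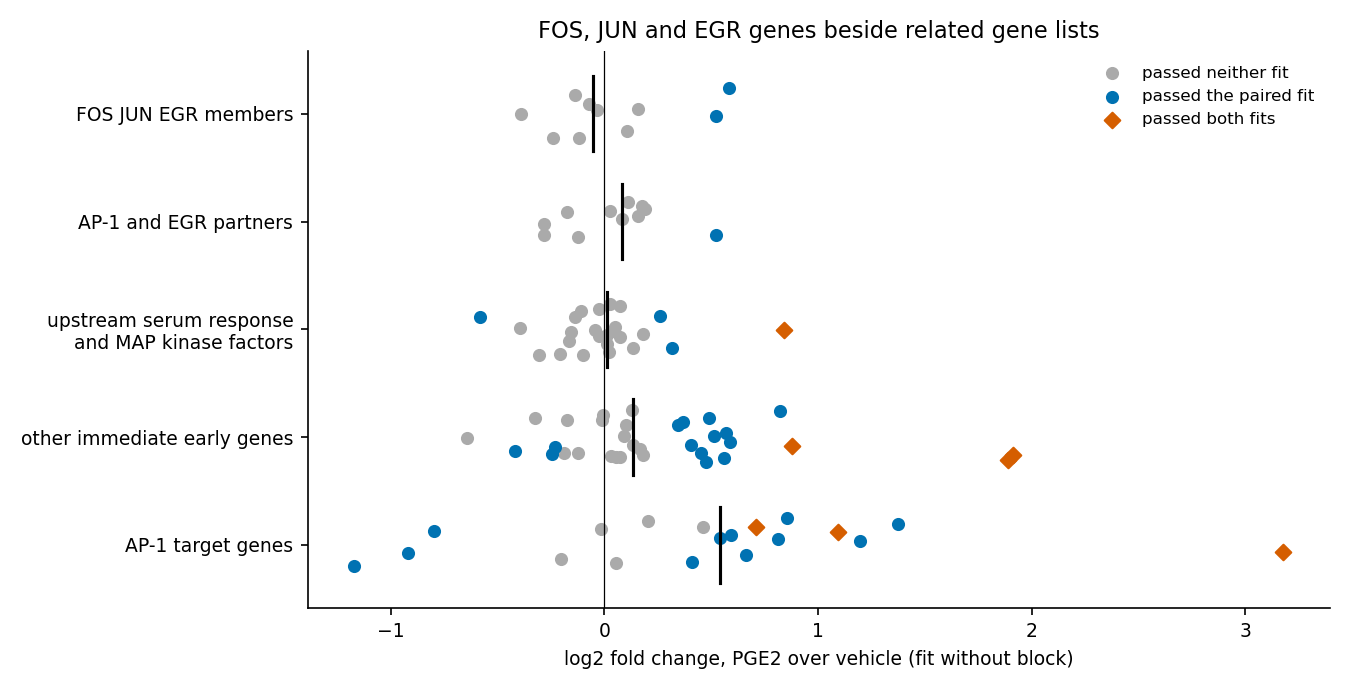
Each point is a tested gene placed by its log2 fold change in the fit without a block on the horizontal axis and by its list on the vertical axis; black lines are list medians, blue points passed the paired fit, orange diamonds passed both fits and grey points passed neither. The 10 members lie between -0.39 and 0.58 with 2 blue points, and the diamonds include Crem, Nr4a1, Nr4a3, Ier3, Il6 and Plau.

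A search for genes with the most similar profile, among 10323 named genes averaging 5 CPM or more, used the root mean square distance of log2 CPM over the 6 libraries, each gene centred on its mean. Nearest to Fos were Mrgprf, Smim4, the pentraxin Ptx3, the cytidine deaminase Cda and the NF-kappaB cofactor Bcl3, at distances of 0.064 to 0.086, where Fos itself varied by 0.39 around its mean. Nearest to Jun were Zfp189, Riok1, Cdkl3, Brf1 and Tbc1d17, at 0.021 to 0.024, with the steady profile that the search asked for. Nearest to Egr1 were the complement protease gene C1s1, the fibroblast activation protein Fap, Slc27a6, the complement gene C1ra and osteoglycin Ogn, at 0.047 to 0.10. None of the 5 genes near Egr1 passed either fit, and they share its low values in the number 1 libraries by the construction of the search, as the genes near Fos share its higher values with PGE2.

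The libraries held 21006044 to 52730962 counts, so 3 counts corresponded to 0.0569 to 0.143 CPM. Of 10 progenitor markers, Pdgfra stood at 1121 to 1455 CPM and the proteoglycan Dcn at 230.2 to 545 CPM, whereas Lum was at 4.00 to 14.2, Pi16 at 2.39 to 19.5 and Dpp4 at 0.767 to 3.21 CPM. Of the 10 markers 0 passed unblocked, and 3 rose and 2 fell in the paired fit, where 14.4% of all tested genes changed. Sums over marker lists ranged from 582 to 695 CPM for 8 pericyte and smooth muscle genes, 19.3 to 47.5 CPM for 6 endothelial genes, 8.56 to 12.3 CPM for 6 macrophage and leukocyte genes and 4.24 to 8.09 CPM for 5 Schwann cell genes. Most of the pericyte sum was Pdgfrb, at 512 to 596 CPM, while Notch3, Cspg4 and Rgs5 reached 58.8, 46.4 and 10.5 CPM. Most of the endothelial sum was Tek, at 14.9 to 39.6 CPM, while Kdr reached 4.94 and Pecam1 0.254 CPM. The defining genes Ptprc of leukocytes and Sox10 of Schwann cells were at 0 counts in every library. In the paired fit 3 pericyte, 1 endothelial and 2 Schwann cell genes fell and 2 macrophage and leukocyte genes rose, and their part in the members' differences was not tested.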

How the data were processed

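The members and gene lists were chosen with earlier results of these data known. The authors deposited whole-number counts per gene for 6 libraries of polyadenylated RNA, read as 100-base paired ends, on build mm10 per the submitters' processing notes, with aligner and counter not given in the sources used here. Counts were tested in edgeR 4.0.16 (R 4.3.3) with filterByExpr, trimmed mean of M values scaling, a robust quasi-likelihood fit and Benjamini-Hochberg adjustment over 15186 genes at 0.05; errors of fold changes are standard errors, and intervals are unadjusted. The scripts were tested on simulated data.

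Deviations from group means correlated at 0.621, 0.169 and 0.422 between libraries numbered 1, 2 and 3. Each exceeded 0.1, so by the rule the numbers were taken to pair the libraries, on evidence from the data and not the labels; PGE2 library 2 correlated more with vehicle library 3, at 0.252. The fit with that block is the paired fit. The length correction added a lowess trend on the longest GENCODE M21 transcript (span 0.3) to the offset. DESeq2 1.42.0, limma-voom (limma 3.58.1), other scalings and filters, and each library left out were alternatives. Positions are GENCODE M21 on GRCm38. Named genes were all members, up to 4 genes per list with the smallest p and any that passed, and the 5 genes with profiles nearest to Fos, Jun and Egr1. One AP-1 target gene that this rule names is counted but not reported here by name.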

Additional observations from a re-analysis of the deposited data

How the results depend on the processing

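Junb, Fos, Fosl2, Jun, Egr2 and Egr3 kept their direction under every alternative run, with log2 fold changes of 0.45 to 0.69 for Junb and 0.30 to 0.67 for Fos. No member passed unblocked in edgeR or limma-voom under any scaling, filter or left-out library. Members changed were 1 by DESeq2, 2 with the replicate block and 4 with block and length correction, and 1 to 4 with the block and 1 replicate number left out. Each of the 3 fits with a number left out leaves 1 residual degree of freedom per gene. Without number 3 the 4 were Junb, Fos, Jund (0.17, paired edgeR adjusted p = 0.0198) and Egr2 (-0.35, adjusted p = 0.00108). Neither Jund nor Egr2 passed the paired fit without number 1 or 2. Genes changed were 52 in the main fit, 932 by DESeq2, 285 with no filter, 13 by limma-voom, 15 with length correction, 2189 with the replicate block and 2549 with both; library totals gave 31 higher and 34 lower, against 32 and 20. Leaving out 1 library gave 0 to 120 genes, namely 30 without vehicle library 1, 120 without PGE2 library 1 and 0 without any of the other 4, where 1494 to 3697 genes had an unadjusted p under 0.05. With the block and 1 number left out, 1372, 1160 and 5097 genes changed without numbers 1, 2 and 3. The cause was not tested. Directions turned for members near 0, whose values with 1 library left out ranged from -0.25 to 0.015 for Fosb, -0.27 to 0.26 for Fosl1 and -0.39 to 0.11 for Egr1. Fosb was at 0.015 without vehicle library 3 and 0.012 with the block and without number 3; Fosl1 at 0.26 without vehicle library 1, 0.15 without PGE2 library 3, and 0.0074 and 0.018 with the block and without numbers 1 and 3; Jund at -0.018 with length correction, with or without the block; Egr1 at 0.087 without vehicle library 3 and 0.11 without PGE2 library 1. With mean in place of longest transcript lengths, vehicle and PGE2 totals per kb were 120.1 and 131 for FOS, 220.3 and 282 for JUN and 36.1 and 31.3 for EGR. The low counts of Fos, Fosb and Egr3 limit their precision.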
